A study of Homo sapiens with 10 samples.

Results

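BMP2 and 9 other genes of the bone morphogenetic protein (BMP) pathway were examined in NB4 cells, a line derived from acute promyelocytic leukemia. BMP2 was chosen by its values in the authors' own comparisons of these libraries, which are not used here, and the other genes by their place in its pathway. Their rows were found by gene symbol among the protein-coding genes, which gave 10 of 19975 protein-coding genes and of 60603 genes in all. In the knockdown experiment, cells carried the empty pLKO.1 puro lentiviral vector (EV) or that vector with the hairpin shA1 or shB2 against GSE1, a subunit of corepressor complexes, and RNA was taken 48 h after transduction. In the inhibitor experiment, cells received 2 µM MC2580, an inhibitor of the histone demethylase LSD1, or DMSO for 24 h. The titles write the compound as MC280. Each of the 5 groups has 2 replicates, so the knockdown has 6 libraries and the inhibitor experiment 4, all from 1 cell line.

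The value used here for each gene is the base mean, the authors' average of size-factor-normalised counts over all libraries of an experiment. It pools treated and control cells. A level is therefore available for each experiment and not for each group, it has no error, and neither the effect of the hairpins nor that of MC2580 on these genes was analysed here. Differences between genes or between experiments are accordingly given as sizes, without a test, and the depth of each library is unknown. The base means sum to 40543130 in the knockdown and to 41201112 in the inhibitor experiment. To set the experiments side by side, base means were divided by that sum and multiplied by 1000000, which gives the scaled level. To set genes side by side, the scaled level was divided by the length of the annotated exons in kilobases, and every value given per kilobase is on this scale.

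BMP ligands are secreted dimers of the TGF-β superfamily. They bring together type I and type II serine/threonine kinase receptors, and the type I receptor phosphorylates SMAD1, SMAD5 and SMAD9, which enter the nucleus with SMAD4. The ID genes, encoding inhibitors of basic helix-loop-helix transcription factors, and the inhibitory SMAD6 and SMAD7 are classical targets, and the latter pair feeds back on the receptors. BAMBI is a decoy receptor without a kinase domain.

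A base mean of 10 or more was taken as a level, and such a gene is referred to as expressed. By this minimum, 7 of the 10 genes had a level in the knockdown experiment and 8 in the inhibitor experiment, whereas 63.1% and 63.0% of all protein-coding genes did. In both experiments, 7 of the 10 genes and 12354 of 19975 protein-coding genes had a level. In scaled level per kilobase, only ID2 in the knockdown (1 of 10 genes) exceeded the median of the expressed protein-coding genes, 4.82, and in the inhibitor experiment, where this median was 4.27, 0 of the 10 genes did. The median over the 10 genes was 1.58 per kilobase in the knockdown and 1.16 in the inhibitor experiment.

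**Figure D1:**
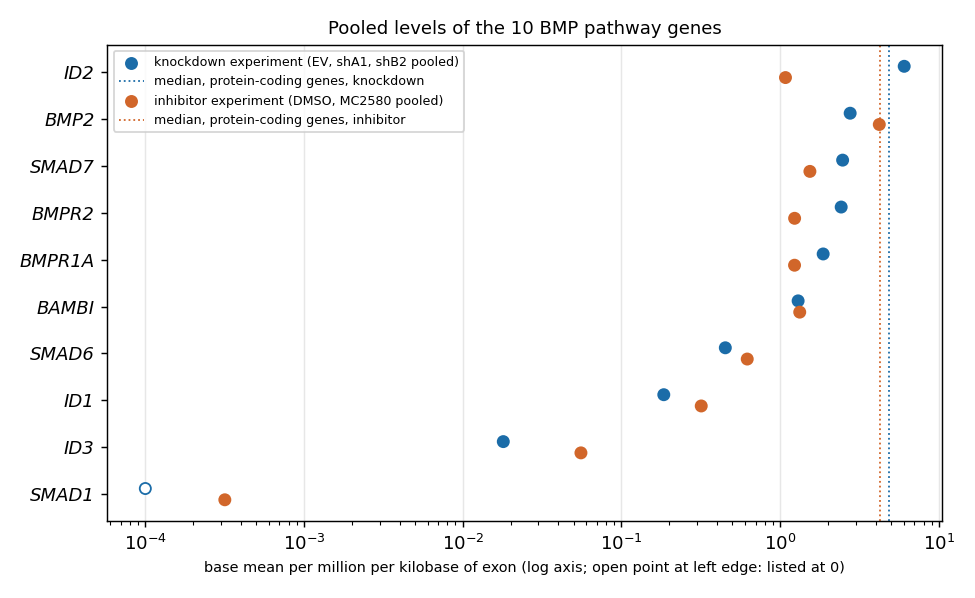
Level of each of the 10 genes as scaled level, the base mean per 1000000 of the sum, per kilobase of exon (log axis), in the knockdown (blue) and inhibitor (orange) experiments, each point being 1 pooled mean with no error. The dotted lines are the medians of the expressed protein-coding genes, at 4.82 and 4.27. SMAD1 and ID3 lie far below the other genes, and ID2 is the gene whose points are farthest apart among those with a level in both experiments.

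Among the ligands, BMP2 had the highest pooled level of 12 examined. It was chosen by its values in these same libraries, and the pooled mean includes the treated ones. Its rank in control cells alone is therefore not known. BMP2 (ENSG00000125845.7, chromosome 20 of GRCh38, 6767686 to 6780246, plus strand) has 1 annotated transcript. Its base mean was 396.6 in the knockdown and 615.0 in the inhibitor experiment. Its scaled levels per kilobase were 2.76 and 4.21, at the 55.1 and 63.0 percentile of protein-coding genes above 0. Among the expressed protein-coding genes alone, BMP2 stood at the 38.3 and 49.7 percentile. It ranked 2 of 10 in the knockdown (4 of 10 with the length of the longest transcript, where BMPR1A ranked 2) and 1 of 10 in the inhibitor experiment. BMP8B, the next ligand, reached 1.60 and 1.53 per kilobase. Only BMP2, BMP8A and BMP8B were expressed in both experiments (3 of 12 ligands). BMP4 and BMP5 were listed at 0 in the knockdown and had base means of 1.33 and 1.18 in the inhibitor experiment, while GDF2, a ligand of endothelial BMP signaling, was listed at 0 only in the latter.

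Both receptor genes of the set were expressed in both experiments. BMPR2, which encodes the type II receptor of BMPs (chromosome 2, 202376327 to 202567751, plus strand), had base means of 1228 and 635.0, the highest among the 10 genes before correction for length. Its exons span 12502 bases, and its scaled level per kilobase was 2.42 in the knockdown and 1.23 in the inhibitor experiment. The type I receptor gene BMPR1A (chromosome 10, 86756596 to 86932825, plus strand) had base means of 761.9 and 511.1, or 1.87 and 1.23 per kilobase. With the length of the longest transcript in place of all exons, BMPR1A stood at 2.93 and 1.93 per kilobase and BMPR2 at 2.51 and 1.28, so the order of these 2 receptor genes depends on the length used. Of the other receptors, ACVR2B (type II) reached 0.98 and 1.13 per kilobase. The type I receptors BMPR1B and ACVR1 did not exceed 0.0526 per kilobase in either experiment. ACVR1 still met the minimum in both, at base means of 21.0 and 13.4, whereas those of BMPR1B were 0.540 and 0.158. ACVRL1, the endothelial type I receptor, had a base mean of 22.2 in the knockdown and 3.11 in the inhibitor experiment. Altogether 5 of 7 receptor genes were expressed in both experiments.

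The signal transducers were unequal. SMAD1 (ENSG00000170365.10, chromosome 4, 145481194 to 145559176, plus strand) was listed at 0 in the knockdown and had a base mean of 0.0926 in the inhibitor experiment. SMAD5, which responds to the same receptors, had base means of 1508 and 1110, or 4.12 and 2.98 per kilobase. SMAD9 was present at base means of 15.1 and 36.1. SMAD4, the partner shared with the TGF-β branch, had base means of 1810 and 1666. On these pooled values SMAD5 had the highest level of the 3 SMADs that BMP receptors phosphorylate, in both experiments. SMAD1 shares 376 exon bases, 5.30% of its annotated exons, with the antisense gene SMAD1-AS1, which was itself listed at 0 in both experiments.

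The inhibitory genes were all above the minimum. SMAD7 (chromosome 18, 48919853 to 48950965, minus strand) had base means of 395.8 and 250.2, or 2.47 and 1.54 per kilobase. SMAD6 (chromosome 15, 66702236 to 66782849, plus strand) had base means of 156.5 and 218.5, or 0.45 and 0.62 per kilobase. SMAD7 exceeded SMAD6 by 5.48-fold per length in the knockdown and by 2.48-fold in the inhibitor experiment. With the longest transcript as length, SMAD6 stood at 0.74 and 1.02 per kilobase and SMAD7 at 2.92 and 1.82. BAMBI (chromosome 10, 28677510 to 28682932, plus strand) had nearly equal base means of 112.5 and 117.0, or 1.30 and 1.33 per kilobase. The ubiquitin ligase gene SMURF1, whose product targets BMP SMADs and receptors, was higher than any of them at 7.78 and 7.37 per kilobase.

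The 3 ID genes ranged widely. ID2 (chromosome 2, 8678845 to 8684461, plus strand) had a base mean of 542.3 in the knockdown and 98.4 in the inhibitor experiment. Its scaled level per kilobase stood at 6.04 and 1.08, ranking 1 of 10 and 6 of 10. ID1 (chromosome 20, 31605283 to 31606515, plus strand) was near the minimum, at base means of 9.24 and 16.2. ID3 (chromosome 1, 23557926 to 23559501, minus strand) had base means of 1.09 and 3.42. Per length, ID2 exceeded ID1 by 32.7-fold in the knockdown and by 3.39-fold in the inhibitor experiment. ID2 overlaps the antisense gene ID2-AS1 by 145 exon bases, and the base means of ID2-AS1 were 2.25 and 0.202. ID4 had base means of 0.397 and 0.536. Among 10 target genes listed, 5 were expressed in both experiments: SMAD6, SMAD7, ID2, HEY1 and ATOH8. Of these, HEY1 was near the minimum, at base means of 11.6 and 12.9, and ATOH8 had 29.2 and 21.8. MSX2, a homeobox target of BMP signaling, was listed at 0 in both.

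Secreted antagonists were present alongside BMP2. NOG, which encodes the BMP-binding protein noggin, had base means of 324.3 in the knockdown and 700.8 in the inhibitor experiment, or 4.18 and 8.89 per kilobase, above BMP2 in both. TWSG1, which binds BMPs together with chordin, had 4.45 and 2.76 per kilobase, and NBL1, an antagonist of the DAN family, had 2.68 and 3.17. CER1 and GREM1 were listed at 0 in both experiments. Of 10 antagonist genes, 4 were expressed in both. Over the 50 pathway genes of all roles, 24 were, against 12354 of 19975 protein-coding genes. A further 3 pathway genes were listed at 0 in both experiments, a count not made over all genes. For comparison, the 5 genes of the TGF-β branch examined (TGFB1, TGFBR1, TGFBR2, SMAD2 and SMAD3) had base means from 811.6 to 5905. Per kilobase they ran from 1.91 for SMAD2 in the inhibitor experiment to 44.6 for TGFB1 in the knockdown. Per kilobase, SMAD2, at 2.07 and 1.91, was below BMP2 in both experiments. This order rests on the annotated exon lengths, 36426 bases for SMAD2 and 3545 for BMP2. The base means of SMAD2, 3052 and 2872, were above those of BMP2, 396.6 and 615.0. The length of the longest transcript was not tried for SMAD2.

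**Figure D2:**
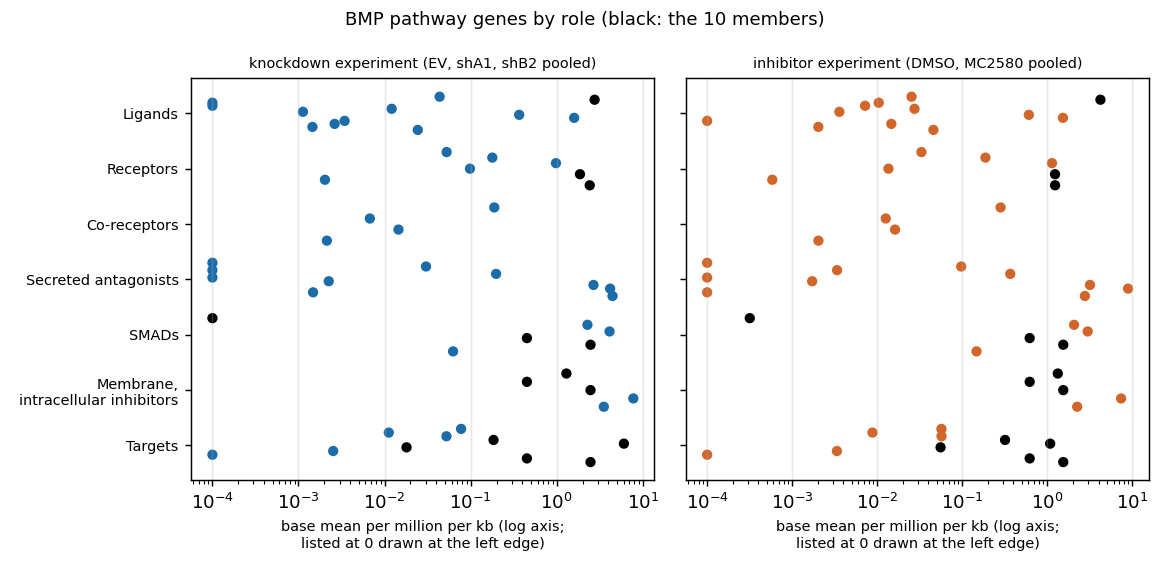
Levels of 50 BMP pathway genes by role, as scaled level per kilobase (log axis), in the knockdown (left) and inhibitor (right) experiments. Each point is 1 gene as 1 pooled mean, the 10 members are black, and SMAD6 and SMAD7 appear under more than 1 role. BMP2 is the rightmost ligand in both panels, at 2.76 and 4.21.

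Of 45 pairs among the 10 genes, 7 changed order between the experiments per kilobase of all exons, and 5 of these involved ID2. All 7 were pairs of genes expressed in both experiments. With the longest transcript as length, the pairs differ. BMP2 then ranked 4 in the knockdown, below BMPR1A (2) and SMAD7 (3), and 1 in the inhibitor experiment, above both. BMPR1A then stayed above BAMBI in both experiments. ID1, ID3 and SMAD1, the lowest genes, ranked 8, 9 and 10 in both, so pairs with them kept their order. For the 7 genes expressed in both experiments, the scaled level in the inhibitor experiment was divided by that in the knockdown. Across the 12354 protein-coding genes that meet the same minimum this ratio had a median of 0.94, and it ran from 0.502 at the 5th percentile to 1.58 at the 95th. The ratio of ID2 was 0.179, at the 0.170 percentile of these genes. BMP2 stood at 1.53, at the 93.8 percentile, and SMAD6 at 1.37. BAMBI had a ratio of 1.02. Those of BMPR1A, SMAD7 and BMPR2 were 0.660, 0.622 and 0.509, the last being at the 5.17 percentile. Thus 1 of the 7 genes, ID2, lay outside the range from the 5th to the 95th percentile. The experiments differ in lentiviral transduction, time, treatment and the share of treated libraries, and the part of each in these ratios cannot be told apart. No spread between libraries stands behind them.

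**Figure D3:**
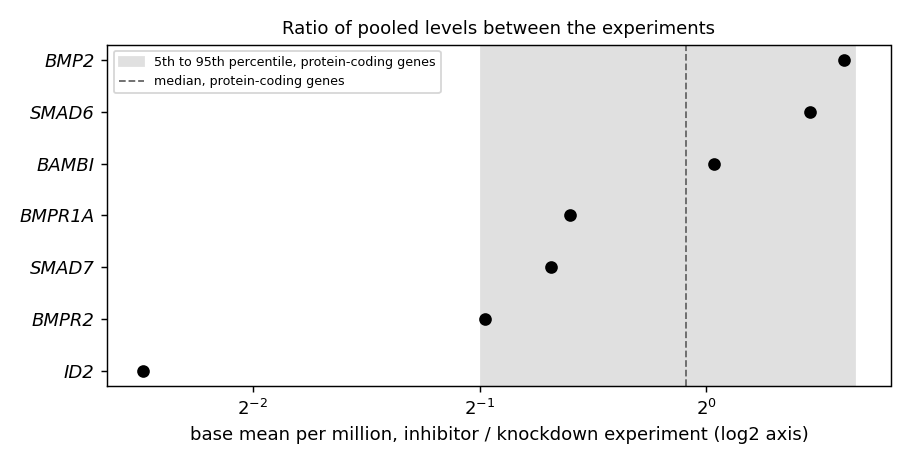
Ratio of the scaled level in the inhibitor experiment to that in the knockdown (log2 axis) for the 7 genes expressed in both. The gray band runs from 0.502 to 1.58, the 5th to 95th percentile of 12354 protein-coding genes, the dashed line is their median of 0.94, and ID2 at 0.179 is the only 1 of the 7 points outside the band.

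A sequence feature was also counted in the promoters of the set. RefSeq promoter windows on GRCh38.p14, here the 250 bases before each RefSeq start, were matched for 9 of the 10 genes by symbol. There were 15 windows because SMAD1 has 5 and SMAD7 has 3. A RefSeq start need not be the gene start given above. The ID2 window, 8681806 to 8682055, lies within the span given for ID2, and some windows of SMAD1 and SMAD7 also lie within their genes. The gene without a matched window is BMP2. GGCGCC, a palindromic GC-rich box that BMP SMADs can bind, was searched alone and followed after 5 bases by GTCT on either strand. The box was found in 4 of 15 windows, belonging to BAMBI, BMPR2 and SMAD1, and in 16.4% of 35116 windows of all genes. By GC content, 10 of the 15 windows lay above the median of all windows, 58.0% GC, and those of BAMBI and BMPR2 lay at the 97.7 and 95.8 percentile. The part of GC content in the count of boxes was not tested. The composite form was found in 0 of the 15 and in 0.0769% of all windows. None of the windows of ID1, ID2, ID3, SMAD6, SMAD7 or BMPR1A holds the box. Sequence outside these 250 bases was not searched, so boxes farther from the start would be missed. The windows of BAMBI, which holds 3 boxes, and of BMPR2, which holds 1, are shown 5′ to 3′ with the box in capitals, as these were the only genes with both a box and a level. They lie on the plus strand at chr10:28677271-28677520 and chr2:202376077-202376326.
BAMBI: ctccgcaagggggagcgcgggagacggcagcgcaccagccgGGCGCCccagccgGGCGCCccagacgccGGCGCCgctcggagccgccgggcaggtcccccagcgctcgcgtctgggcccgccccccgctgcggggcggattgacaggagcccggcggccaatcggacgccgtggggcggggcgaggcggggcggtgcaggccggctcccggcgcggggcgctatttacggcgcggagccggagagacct
BMPR2: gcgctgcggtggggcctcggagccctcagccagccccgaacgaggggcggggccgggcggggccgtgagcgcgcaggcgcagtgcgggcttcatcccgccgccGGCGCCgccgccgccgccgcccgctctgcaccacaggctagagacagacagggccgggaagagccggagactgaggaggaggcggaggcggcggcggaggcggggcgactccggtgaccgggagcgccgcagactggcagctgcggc

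The labels give NB4 as the cells, and the markers were read accordingly. Of 6 promyelocyte markers, 5 were expressed in both experiments, led by MPO (myeloperoxidase) at 506765 and 824818. ELANE, the exception, had base means of 1.10 and 3.87. Summed over 3 genes each, the T cell, B cell, endothelial, fibroblast and epithelial lists reached a scaled level of at most 50.7, in the knockdown, against 12749 for the promyelocyte list, of which MPO made up 12499. Some single genes of the lists for other cell types were expressed in both experiments, and whether they are particular to those cell types was not tested. CD3D (T cell) had base means of 865.9 and 868.8, EPCAM (epithelial) of 431.9 and 403.3, and PECAM1 (endothelial) of 2048 and 688.7, while AZU1, a promyelocyte marker, had 723.2 and 1814. Of these markers, CDH1 was listed at 0 in the knockdown and MS4A1 in the inhibitor experiment. The sum of 50.7 was of the endothelial list, nearly all of it PECAM1, and it was 16.8 in the inhibitor experiment. GSE1 had pooled base means of 2963 and 4441 and KDM1A, which encodes LSD1, of 7648 and 6285, values that do not test the knockdown.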

How the data were processed

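mRNA-seq libraries of NB4 cells, 10 in all, were made by the authors with TruSeq, mapped to hg38 with STAR (2.7 per the submitters' processing notes), quantified with RSEM and fitted with DESeq2. The signal values used are the base means deposited by the authors, which average size-factor-normalised counts across an experiment. Both base mean columns of the knockdown table were equal in all 60603 rows. The other 15 value columns hold the authors' own log2 fold changes, standard errors, Wald statistics, p-values and adjusted p-values, and were not used. The count-based tests planned for values per library were therefore not run.

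Base means were divided by their sum, times 1000000, and by the union of exons in GENCODE release 44 (GRCh38), which matched 60261 of the identifiers by stable ID. The annotation release of the authors is not given in the sources used here. Percentiles are over protein-coding genes above 0. Calculations used Python 3.11.15 and pandas 2.3.3, and the length and percentile steps were tested on simulated data. All 10 members are named, and other pathway genes by role. Members and lists were chosen with earlier results of these data known, and some other genes were named after their values were seen. Alternatives changed the minimum, the scaling, the gene length and the genes ranked. Of the marker lists, 1 is not reported here.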

Additional observations from a re-analysis of the deposited data

How the results depend on the processing

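No paired analysis was possible because the pooled base means used here carry no replicate. For the same reason no replicate could be left out. A value was taken as moved beyond a factor of 1.5, since no spread between libraries is known. Of 90 alternative values, 67 stayed within this factor. These include 21 from scaling to protein-coding genes and 21 from scaling without the 50 highest genes. Each such scaling multiplies every gene of an experiment by the same number, so its values are not separate checks of the genes. Ranking only against the expressed protein-coding genes (base mean 10 or more) lowered the median percentile of the 10 genes by construction, since low genes leave the ranking. This median fell from 48.0 to 28.6 in the knockdown and from 45.5 to 26.0 in the inhibitor experiment. All 10 genes enter these medians, also those below the minimum, and SMAD1, listed at 0 in the knockdown, was entered there at percentile 0. Using the longest transcript as gene length moved 7 single values by more than that factor, those of ID3, SMAD6 and BMPR1A in both experiments and that of SMAD1 in the inhibitor experiment. It raised BMPR1A from rank 5 to rank 2 of the 10 genes in each experiment, and BMP2 went from rank 2 to rank 4 in the knockdown. With a minimum base mean of 1, 9 genes had a level in each experiment, and with 50, 7 did. Both other scalings kept every value within the factor. Because all genes of an experiment share the change, this holds for all of them or for none.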
